A study of Mus musculus with 6 samples.

Results

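The genes of MHC class I antigen presentation were examined as a set of 10, named by symbol and followed through RNA-Seq of c-Jun/JunB-deficient and control cDC1s. They comprise the heavy chains *H2-K1* and *H2-D1*, the light chain *B2m*, the peptide transporter genes *Tap1* and *Tap2*, the loading chaperone *Tapbp*, the immunoproteasome subunits *Psmb8* and *Psmb9*, the trimming peptidase *Erap1* and the transcriptional activator *Nlrc5*. All 10 were found among the 54532 gene identifiers counted in every library, and all 10 were among the 12894 genes with enough reads to be tested. cDC1s are the conventional dendritic cells that specialise in presenting antigen to CD8 T cells. They were grown from murine bone marrow with FLT3L (80 ng/mL), a cytokine that drives dendritic cell development, and sorted on day 8 as CD24+ CD11c+ cells lacking B220, CD115 and CD172a. The control libraries are labelled c-Jun/JunBfl/fl and carry floxed *Jun* and *Junb* alleles without Cre (fl/fl 1, 2 and 3). The other libraries are labelled c-Jun/JunB fl/fl Itgax-Cre and are called Δ/Δ 1, 2 and 3 here after the deleted alleles. Cre under the *Itgax* (CD11c) promoter acts only once a cell switches that promoter on, and the mice were of mixed 129Sv and C57BL/6 background. No maturation stimulus is given for either group. The comparison asked whether the class I transcripts of sorted cDC1s differed with loss of both AP-1 subunits.

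MHC class I molecules display peptides from inside the cell to CD8 T cells. Proteins are cut by the proteasome, in which PSMB8 and PSMB9 replace constitutive catalytic subunits, and TAP1 and TAP2 carry the peptides into the endoplasmic reticulum. There ERAP1 trims them, and tapasin (encoded by *Tapbp*) holds the empty heavy chain and its β2-microglobulin partner near the transporter until a peptide binds. NLRC5 is an activator of class I gene transcription, and NF-κB and interferon regulatory factors are known to act on the upstream regions of these genes. In cDC1s the pathway also serves cross-presentation, the display of peptides from engulfed material.

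The RefSeq start regions of 8 of the 10 genes were available on build GRCm38.p6 (not *Tap2* and *Nlrc5*), and the 250 bases before each start were searched on both strands. The letters used were TGANTCA for an AP-1 element, GAAA, any 2 bases and GAAA for an interferon-stimulated response element (ISRE), GGG, any 2 bases and TTCCC for a κB element, TTC, any 3 bases and GAA for an interferon-gamma-activated site (GAS), and CCAAT for the box bound by NF-Y. The upstream regions of *H2-K1* and *B2m* are shown 5′ to 3′ on the gene's own strand because they hold the κB and the ISRE match, in capitals. GAS and CCAAT matches are not marked. For *H2-D1*, whose window lies within an annotated first exon, only the κB match with 10 bases on either side is shown, to set it beside the same element of *H2-K1*. The windows of *Tapbp*, *Psmb8*, *Psmb9* and *Erap1* also lie inside the annotated spans of their genes.
H2-K1, chr17:34000348-34000597, minus strand: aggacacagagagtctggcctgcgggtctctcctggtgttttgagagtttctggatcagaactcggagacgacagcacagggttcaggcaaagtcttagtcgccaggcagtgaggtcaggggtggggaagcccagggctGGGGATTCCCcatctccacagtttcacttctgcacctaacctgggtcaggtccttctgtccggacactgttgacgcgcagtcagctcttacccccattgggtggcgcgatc
B2m, chr2:122147437-122147686, plus strand: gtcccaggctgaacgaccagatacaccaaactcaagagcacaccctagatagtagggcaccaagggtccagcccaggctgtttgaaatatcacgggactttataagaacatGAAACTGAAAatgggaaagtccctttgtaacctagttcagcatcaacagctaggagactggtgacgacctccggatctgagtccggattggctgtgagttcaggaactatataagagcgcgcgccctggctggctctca
H2-K1 κB match, chr17:34000439-34000468, minus strand: gcccagggctGGGGATTCCCcatctccaca
H2-D1 κB match, chr17:35262913-35262942, plus strand: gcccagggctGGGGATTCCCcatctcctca
The κB letters were found before *H2-K1* and *H2-D1* and in 1.53% of all 32851 RefSeq upstream windows of this length. The ISRE letters were found before *B2m* and in 2.98% of all windows. The AP-1 letters were in none of the 8 genes' windows and in 6.75% of all. The GAS letters were found before *Psmb8* and in 7.02% of all windows. CCAAT was found before *H2-K1*, *H2-D1*, *B2m*, *Tap1*, *Tapbp* and *Psmb9* and in 33.9% of all windows. The windows of *Tap1* and *Psmb9* overlap on opposite strands, and the CCAAT match of these 2 genes is the same stretch of bases. Such a match is a description of letters and not a binding site. Elements outside these windows, and forms of these elements with other letters, were not searched.

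Reads on genes numbered 21693217 to 26788296 per library, and the 10 class I genes took 0.650 to 0.710% of them in fl/fl and 0.585 to 0.744% in Δ/Δ libraries. Each member held between 2407 and 40479 reads in a library. The deleted genes were read first as a check of the labels. *Jun* stood at 70.9, 52.5 and 63.1 CPM (counts relative to library size, scaled with TMM factors) in fl/fl and at 48.2, 44.3 and 60.5 CPM in Δ/Δ libraries, which overlapped (log2 fold change −0.29, SE 0.15, adjusted p = 0.345 by edgeR). *Junb* stood at 315, 274 and 413 against 110.4, 171 and 212 CPM without overlap (log2 fold change −1.02, SE 0.25, adjusted p = 0.0729 by edgeR). Neither passed the threshold of 0.05 by edgeR, and *Junb* passed by DESeq2 (adjusted p = 0.000119), without the filter on low counts (0.0161) and without Δ/Δ 1 (0.0359). The study reports the deletion of both genes by quantitative RT-PCR in cDC1s and cDC2s sorted from mice, not in these libraries. Its supplement also lists both genes among those measured by quantitative RT-PCR in FLT3L cultures of the same genotypes on day 8. There progenitors, precursors of conventional dendritic cells and cDC1s were sorted. Among cDC1 markers, *Irf8* and *Clec9a* were expressed in all 6 libraries (2653 to 2879 and 203 to 273 CPM). The chemokine receptor *Xcr1* (log2 fold change −1.42, adjusted p = 0.00812) and the RNA sensor *Tlr3* (−0.77, adjusted p = 0.0226) were lower in Δ/Δ libraries by edgeR, and the other 8 cDC1 markers did not pass. Of the 10 cDC1 markers, 6 had lower and 4 higher means in Δ/Δ libraries. The higher ones, named after their values were seen, were *Itgae* (log2 fold change 1.10), *Cadm1* (0.32, without overlap), *Batf3* (0.09) and *Irf8* (0.04). The summed level of 8 cDC2 markers was 224 to 369 CPM in fl/fl and 516 to 749 CPM in Δ/Δ libraries, in which *Cd209a* (2.25) and *Klf4* (0.97) passed as higher on the log2 scale. In sorted bulk RNA, a change in the share of a cell type and a change of RNA per cell cannot be told apart.

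None of the 10 class I genes differed between genotypes under edgeR's quasi-likelihood test (adjusted p under 0.05), which called 3.88% of all 12894 tested genes, 1.85% as lower and 2.03% as higher in Δ/Δ libraries. When an absolute log2 fold change of 1 or more was asked for as well, 1.86% of all genes and again 0 members were called. DESeq2 and limma-voom also called 0 of 10, where they called 8.56% and 4.08% of all genes. At an unadjusted p under 0.05, edgeR gave 2 members and 19.4% of all genes. DESeq2 gave 3 members and limma-voom 3, and the shares of all genes were not counted for these. Mean levels of 6 members were lower and of 4 higher in Δ/Δ libraries, with a median log2 fold change of −0.05 against 0.00 over all tested genes. All 10 had a log2 fold change within 0.5 of zero, as did 10648 of the 12894 tested genes. Over the 10 genes, the 95% intervals of the log2 fold change reached from −0.67 to 0.44, that is from 0.628 to 1.36 times the fl/fl level. Missing the threshold does not show equal levels, and differences within these intervals remain possible. The intervals were computed gene by gene without adjustment over genes. An interval can therefore leave out 0 where the adjusted p does not pass.

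*H2-K1* encodes the classical heavy chain K. Its level was 1159, 967 and 982 CPM in fl/fl 1, 2 and 3, whereas Δ/Δ 1, 2 and 3 had 849, 1273 and 1011 CPM. The Δ/Δ libraries held both the lowest and the highest value, and the means were nearly the same (1036 ± 107 and 1044 ± 214 CPM, SD, n = 3). The log2 fold change was 0.01 with a 95% interval from −0.34 to 0.36 (SE 0.15, adjusted p = 0.977 by edgeR). *H2-D1*, the other classical heavy chain of this locus, stood at 1519, 1333 and 1514 CPM in fl/fl and at 1328, 1889 and 1598 CPM in Δ/Δ libraries. Again Δ/Δ 1 was the lowest and Δ/Δ 2 the highest of all 6 libraries. Its log2 fold change was 0.14 (SE 0.13, 95% interval −0.16 to 0.44, adjusted p = 0.584 by edgeR), and 0.0071 without Δ/Δ 2 or 0.26 without Δ/Δ 1. The reads of the heavy chains could be told apart for the most part, since 1.55% of the 75-base stretches of *H2-K1* transcripts and 6.90% of those of *H2-D1* transcripts also occur in another gene.

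*B2m* encodes β2-microglobulin, the light chain that heavy chains need to reach the surface. It was read at 1375, 1248 and 1227 CPM in fl/fl and at 945, 1259 and 1019 CPM in Δ/Δ libraries. Δ/Δ 1 and Δ/Δ 3 lay below all fl/fl libraries, and Δ/Δ 2 lay within their range. The log2 fold change was −0.26 with a 95% interval from −0.52 to 0.0040 (SE 0.11, adjusted p = 0.265 by edgeR). *B2m* was the only member that passed under any alternative, and did so when Δ/Δ 2 was left out (log2 fold change −0.39, adjusted p = 0.0356 by edgeR).

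**Figure D1:**
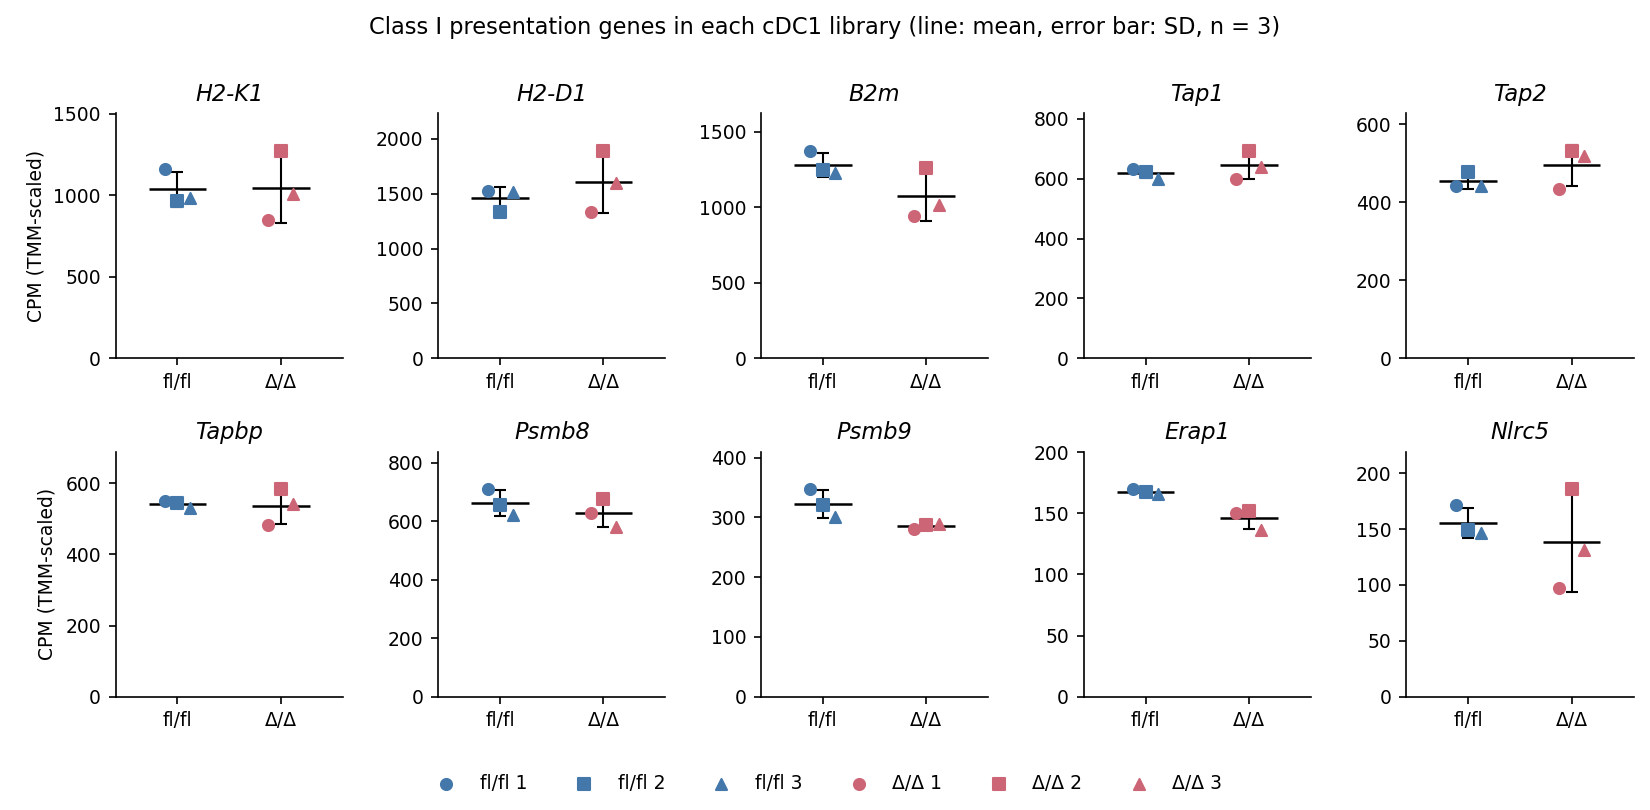
Level of each of the 10 class I genes in CPM (vertical axes, each from 0) in the 3 fl/fl (blue) and 3 Δ/Δ (red) libraries, with 1 symbol per replicate number, a line at the mean and a bar for the SD. The genotypes overlap for 8 genes, while *Psmb9* and *Erap1* are lower in all 3 Δ/Δ libraries than in any fl/fl library.

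*Tap1* and *Tap2* encode the subunits of the peptide transporter. *Tap1* stood at 633, 623 and 599 CPM in fl/fl and at 600.3, 693 and 639 CPM in Δ/Δ libraries. *Tap2* stood at 440.3, 478 and 442 CPM in fl/fl and at 435, 532 and 519 CPM in Δ/Δ libraries. For both genes the genotypes overlapped, and Δ/Δ 2 was the highest library of all 6. Log2 fold changes were 0.06 for *Tap1* (95% interval −0.10 to 0.22) and 0.13 for *Tap2* (−0.08 to 0.33), with adjusted p = 0.670 and 0.470 by edgeR. *Tapbp*, the gene of the chaperone tapasin, was read at 552, 544 and 531 CPM in fl/fl and at 483, 585 and 542 CPM in Δ/Δ libraries. Its fl/fl libraries lay inside the span of the Δ/Δ libraries, and its log2 fold change was −0.02 (95% interval −0.19 to 0.16, adjusted p = 0.938 by edgeR).

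*Psmb8* and *Psmb9* encode the immunoproteasome subunits LMP7 and LMP2 and lie beside *Tap1* and *Tap2* on chromosome 17. *Psmb8* was read at 709.7, 655 and 619.9 CPM in fl/fl and at 627, 674 and 581 CPM in Δ/Δ libraries, with overlap (log2 fold change −0.08, 95% interval −0.26 to 0.11, adjusted p = 0.631 by edgeR). *Psmb9* was read at 348, 321 and 301 CPM in fl/fl and at 281, 286 and 289 CPM in Δ/Δ libraries. Every Δ/Δ library thus lay below every fl/fl library, with means of 323 ± 23.3 and 286 ± 4.12 CPM (SD, n = 3), yet the difference did not pass after adjustment (log2 fold change −0.18, SE 0.07, 95% interval −0.33 to −0.02, adjusted p = 0.200 by edgeR). *Erap1*, which encodes the peptidase that trims peptides to length, showed the smallest spread among fl/fl libraries at 170.0, 167 and 166 CPM. In Δ/Δ libraries it stood at 150.5, 152 and 136 CPM. Here, too, the genotypes did not overlap, and the difference did not pass (log2 fold change −0.20, SE 0.06, 95% interval −0.34 to −0.05, adjusted p = 0.139 by edgeR). *Psmb9* and *Erap1* were the 2 members with lower values in all Δ/Δ libraries, none was higher in all of them, and 12.3% and 13.7% of all tested genes lay apart in these directions (26.0% in either).

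*Nlrc5*, the activator of class I transcription, had the widest spread. The fl/fl libraries had 171, 149 and 146 CPM, and Δ/Δ 1, 2 and 3 had 97.7, 186 and 131 CPM. The Δ/Δ libraries held the highest and the lower 2 of the 6 values, and their coefficient of variation was 32.2%. The log2 fold change of −0.17 therefore had the widest interval of the 10 genes, from −0.67 to 0.33 (SE 0.21, adjusted p = 0.707 by edgeR).

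Levels of different genes were compared per kilobase of the principal coding transcript. In fl/fl libraries *B2m* was highest at 1492 ± 93.1 CPM per kb, followed by *H2-D1* at 692 ± 50.5 and *H2-K1* at 639.9 ± 66.1 CPM per kb (SD, n = 3). The heavy chains overlapped, whereas *B2m* lay above both in every library. *Psmb8* followed at 406 ± 27.8, *Psmb9* at 239 ± 17.3, *Tap1* at 209 ± 5.91, *Tapbp* at 187 ± 3.63 and *Tap2* at 132 ± 6.06 CPM per kb, without overlap between neighbours in fl/fl libraries. *Erap1* (29.7 ± 0.353) and *Nlrc5* (20.5 ± 1.81 CPM per kb) were the least abundant. In Δ/Δ libraries the order was the same except that *Tap1* (218 ± 15.7 CPM per kb) stood above *Psmb9* (211 ± 3.05 CPM per kb), and these neighbours overlapped there, as did the heavy chains, and *Erap1* with *Nlrc5*. The order depends on the length chosen, since dividing by all annotated exon bases put *Psmb9* (88.3 CPM per kb) below *Tap1*, *Tap2* and *Tapbp* in fl/fl libraries. Before any length scaling, *H2-D1*, *B2m* and *H2-K1* ranked 41, 66 and 80 by mean CPM among the tested genes.

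**Figure D2:**
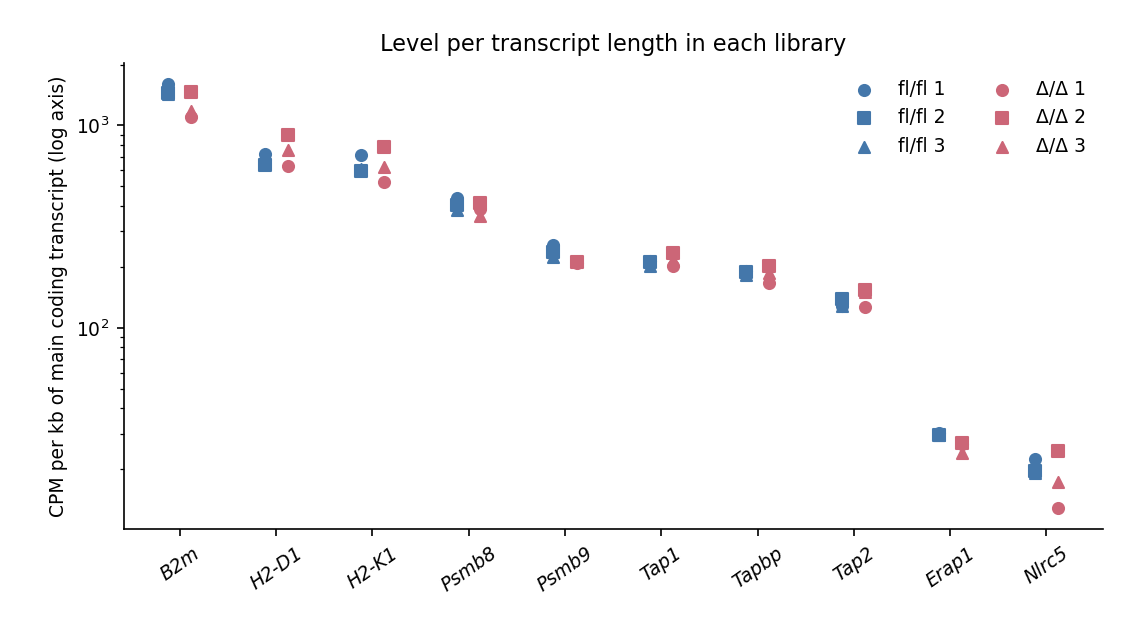
CPM per kilobase of principal coding transcript (vertical log axis) of the 10 class I genes, ordered by their fl/fl mean, with 1 point for each fl/fl (blue) and Δ/Δ (red) library. *B2m* lies near 1492 and *Nlrc5* near 20.5 CPM per kb in fl/fl libraries.

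The Δ/Δ libraries differed among themselves in most class I genes. Summed over the 10 genes, the level was 6483 to 7077 CPM in fl/fl libraries and 5797, 7528 and 6467 CPM in Δ/Δ 1, 2 and 3, so that the Δ/Δ libraries held both extremes. Of the Δ/Δ libraries, Δ/Δ 2 was the highest for 9 of the 10 genes (30.0% of all tested genes) and Δ/Δ 1 the lowest for 8 of them (34.5% of all). The exceptions were *Psmb9*, highest in Δ/Δ 3, and *Psmb8* and *Erap1*, lowest in Δ/Δ 3. The coefficient of variation was larger in Δ/Δ than in fl/fl libraries for 9 of 10 genes, where 70.4% of all tested genes had the larger one in Δ/Δ libraries. Markers of mature dendritic cells, which move to lymph nodes and raise antigen presentation, had the same order, as did the low sums of B cell, basophil and mast cell, and neutrophil markers given further on. The summed mature DC level over 7 genes was 985, 715 and 849 CPM in the controls against 318, 1743 and 462 CPM in Δ/Δ 1, 2 and 3, and 0 of these 7 differed by genotype (edgeR, adjusted and unadjusted p under 0.05 alike). *Ccr7*, the receptor that guides mature dendritic cells to lymph nodes, was read at 221, 152 and 159.9 CPM in fl/fl and at 26.9, 376 and 60.8 CPM in Δ/Δ libraries. None of the 7 mature DC markers was at 0, and their part in the class I levels was not tested.

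**Figure D3:**
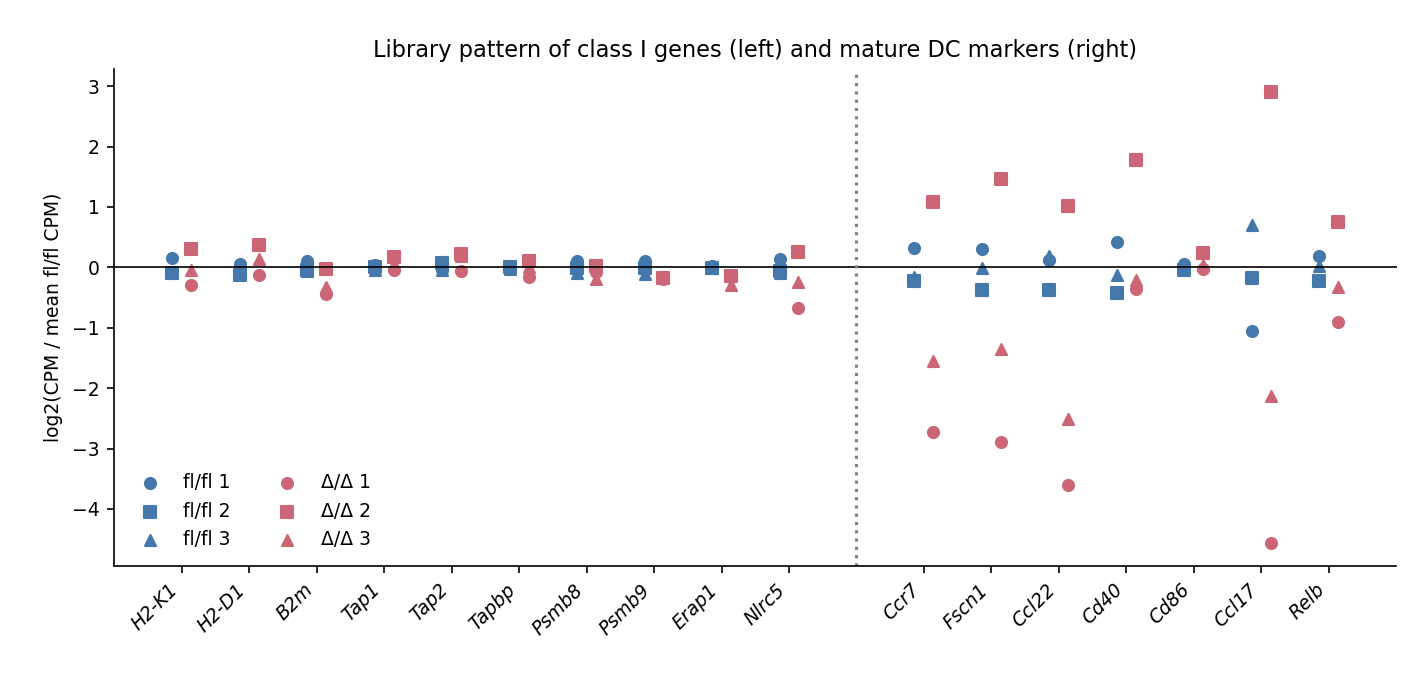
Log2 ratio of each library's CPM to the fl/fl mean (vertical axis) for the 10 class I genes (left of the dotted line) and 7 mature DC markers (right), with 1 symbol per library. Δ/Δ 2 (red squares) is the highest and Δ/Δ 1 (red circles) the lowest Δ/Δ library for most genes on either side, with a much wider spread among the mature DC markers.

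Markers of other cell types were read in the same libraries, although the gate against B220, CD115 and CD172a is meant to remove pDCs, B cells, monocytes and cDC2s. Summed markers were 225 to 242.5 CPM in fl/fl and 245 to 295 CPM in Δ/Δ libraries for pDCs (6 genes, of which *Ccr9* passed as higher), and 1791 to 1974 against 1963 to 2588 CPM for monocytes and macrophages (6 genes, of which *Adgre1* passed as higher). Of the pDC genes 5 had higher means, 2 of them without overlap (13.7% of all tested genes were higher without overlap). *Bst2* alone was lower, at 109, 102 and 89 against 79, 71 and 78 CPM without overlap (adjusted p = 0.0572 by edgeR). *Lyz2* made up most of the monocyte and macrophage sum, at 1760 to 1939 against 1895 to 2520 CPM, and did not pass (adjusted p = 0.233 by edgeR). In that list *Ly6c2* and *Fcgr1* had lower means in Δ/Δ libraries. Neutrophil markers summed to 3.74 to 12.4 CPM in fl/fl libraries and to 0.852, 6.999 and 5.20 CPM in Δ/Δ 1, 2 and 3, with *Elane* and *Ly6g* at 0. B cell markers summed to 13.05 to 22.02 CPM in the controls and to 7.99, 37.8 and 18.7 CPM in Δ/Δ 1, 2 and 3. Basophil and mast cell markers summed to 0 to 0.260 CPM in the controls and to 0.406, 7.28 and 0.969 CPM in the same Δ/Δ libraries. T and NK cell markers summed to 0.501 to 0.848 against 0.607 to 0.852 CPM. Of 5 genes behind the sort, *Itgax* (CD11c), whose promoter also drives the Cre, was lower in Δ/Δ libraries (log2 fold change −1.22, adjusted p = 0.0147 by edgeR). The part of these cells in the class I levels was not tested.

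The 3 protein-coding genes outside the set whose log2 CPM followed the members' mean most closely over the 6 libraries were *Cdk17* (Pearson r = 0.978), *Pkib* (0.973) and *Mreg* (0.972), out of 8378 genes compared. These points share libraries and scaling factors, and the r values are a description only. *Mreg* stood at 36.1, 25.1 and 24.1 CPM in fl/fl and at 5.07, 58.3 and 12.7 CPM in Δ/Δ libraries, with Δ/Δ 2 again high and Δ/Δ 1 low.

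The wider pathway was read from 6 lists with 64 genes, of which 63 were matched and 58 tested. Of these, 31 had lower and 27 higher means in Δ/Δ libraries with a median log2 fold change of −0.02, and 1 passed, in the higher direction (beside 3.88% of all genes in either), while 19 of the 58 had an unadjusted p under 0.05 (19.4% of all genes). *Rab27a*, a vesicle transport gene linked to cross-presentation, rose from 81.4, 77.3 and 74.4 CPM to 106, 102 and 91.5 CPM (log2 fold change 0.36, SE 0.07, adjusted p = 0.0454 by edgeR). Its call was lost without fl/fl 1 (adjusted p = 0.137), fl/fl 2 (0.197), fl/fl 3 (0.161) or Δ/Δ 2 (0.0740).

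Of 10 tested heavy chain genes other than the members, 8 had lower means in Δ/Δ libraries (median log2 fold change −0.32) and 0 passed edgeR's adjusted threshold. By edgeR 4 had an unadjusted p under 0.05, and 3 were lower without overlap, beside 19.4% and 12.3% of all tested genes. The largest difference was that of *Cd1d1*, which encodes the lipid-presenting molecule CD1d. It was read at 11.2, 9.23 and 11.3 CPM in fl/fl and at 1.06, 4.43 and 1.81 CPM in Δ/Δ libraries, and every Δ/Δ library lay below every fl/fl library. Its log2 fold change of −2.13 (SE 0.47) missed the threshold by edgeR (adjusted p = 0.0571) and passed by DESeq2 (adjusted p = 8.20e-05) and limma-voom (adjusted p = 0.0219). At the other end stood *H2-T23*, the gene of the nonclassical molecule Qa-1, with a log2 fold change of 0.14 (adjusted p = 0.509 by edgeR). Chosen after their values were seen, the nonclassical genes *H2-Q6* and *H2-T10* also had wide differences. *H2-Q6* was read at 123, 92.8 and 75.1 CPM in fl/fl and at 23.5, 75.6 and 32.4 CPM in Δ/Δ libraries, so that only Δ/Δ 2 reached the fl/fl range. Its log2 fold change was −1.15 (SE 0.42, adjusted p = 0.195 by edgeR), and −1.79 without Δ/Δ 2 (adjusted p = 0.0124). *H2-T10* stood at 12.3, 9.12 and 9.38 against 4.38, 4.06 and 6.70 CPM without overlap (log2 fold change −1.03, SE 0.24, adjusted p = 0.0637 by edgeR and 0.00326 by DESeq2). These values are less certain than those of the classical heavy chains, because 17.9% of the 75-base stretches of *H2-Q6*, 23.3% of those of *H2-T10* and 19.4% of those of *Cd1d1* also occur in other genes.

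In the proteasome list, which holds the constitutive catalytic subunits, *Psmb10*, the PA28 and PA200 activators and the assembly factor *Pomp*, 7 of 9 genes had lower means in Δ/Δ libraries and 0 passed by edgeR (5 of 9 at an unadjusted p under 0.05 and 4 of 9 lower without overlap, beside 19.4% and 12.3% of all genes). Log2 fold changes ran from −0.30 for *Psmb7*, the subunit that *Psmb10* replaces (adjusted p = 0.159), to 0.02 for *Psme4*, with a median of −0.22. *Psmb10*, chosen after its value was seen as the remaining immunoproteasome subunit, was at −0.22 (adjusted p = 0.0934 by edgeR). The endoplasmic reticulum list of chaperones and folding enzymes had 2 genes lower and 5 higher and a median of 0.00, from *Pdia3* (−0.11), the disulfide isomerase of the loading complex, to *Uggt1* (0.21), the folding sensor that returns unready molecules. The peptidase list had 3 lower and 4 higher and a median of 0.05, from *Blmh* (−0.20) to *Lap3* (0.11). None of these 7 and 7 genes passed by edgeR, and 1 in each list had an unadjusted p under 0.05 (19.4% of all genes). Among the 13 regulators read here, 5 were lower and 8 higher with a median of 0.07, 0 passed by edgeR and 4 had an unadjusted p under 0.05 (19.4% of all genes). The lowest was *Nfyb* (log2 fold change −0.39), a subunit of the CCAAT-binding factor NF-Y. The highest was *Rfxank* (log2 fold change 0.48, adjusted p = 0.128 by edgeR), part of the RFX complex on class I and class II promoters. *Nfkb1*, an NF-κB gene named after its values were seen, had the smallest p of the 13 by edgeR (log2 fold change 0.37, adjusted p = 0.0776). All Δ/Δ libraries (356, 439 and 444 CPM) exceeded all controls (320, 307 and 330 CPM). It passed by DESeq2 (adjusted p = 0.0068), without the filter on low counts (0.044) and without Δ/Δ 1 (0.0067), but not by limma-voom (0.080). Its part in the class I levels was not tested. *Irf8*, the factor that defines cDC1s, was at 0.04 (95% interval −0.08 to 0.16, adjusted p = 0.687 by edgeR). Among 12 cross-presentation genes, 6 were lower and 6 higher, from *Rac2* (−0.83, adjusted p = 0.0934 by edgeR), a GTPase of the phagosomal oxidase, to *Cybb* (0.50, adjusted p = 0.398), the catalytic subunit of that oxidase. *Rac2* passed by DESeq2 (adjusted p = 0.00144), without the filter on low counts (0.0286) and without Δ/Δ 3 (log2 fold change −1.13, adjusted p = 0.0170). Of these 12 genes, 4 had an unadjusted p under 0.05 by edgeR (19.4% of all genes). Without overlap, 3 were lower and 2 higher (12.3% and 13.7% of all tested genes). The list summed to 5042 to 5221 CPM in controls against 4031 to 4680 CPM. Most of this was *Wdfy4*, named after its values were seen. Its Δ/Δ values (2767, 3125 and 3261 CPM) lay below all control values (3660, 3788 and 3628 CPM). The log2 fold change was −0.28 (adjusted p = 0.0876 by edgeR), and it passed by DESeq2 (0.017) but not by limma-voom (0.080).

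**Figure D4:**
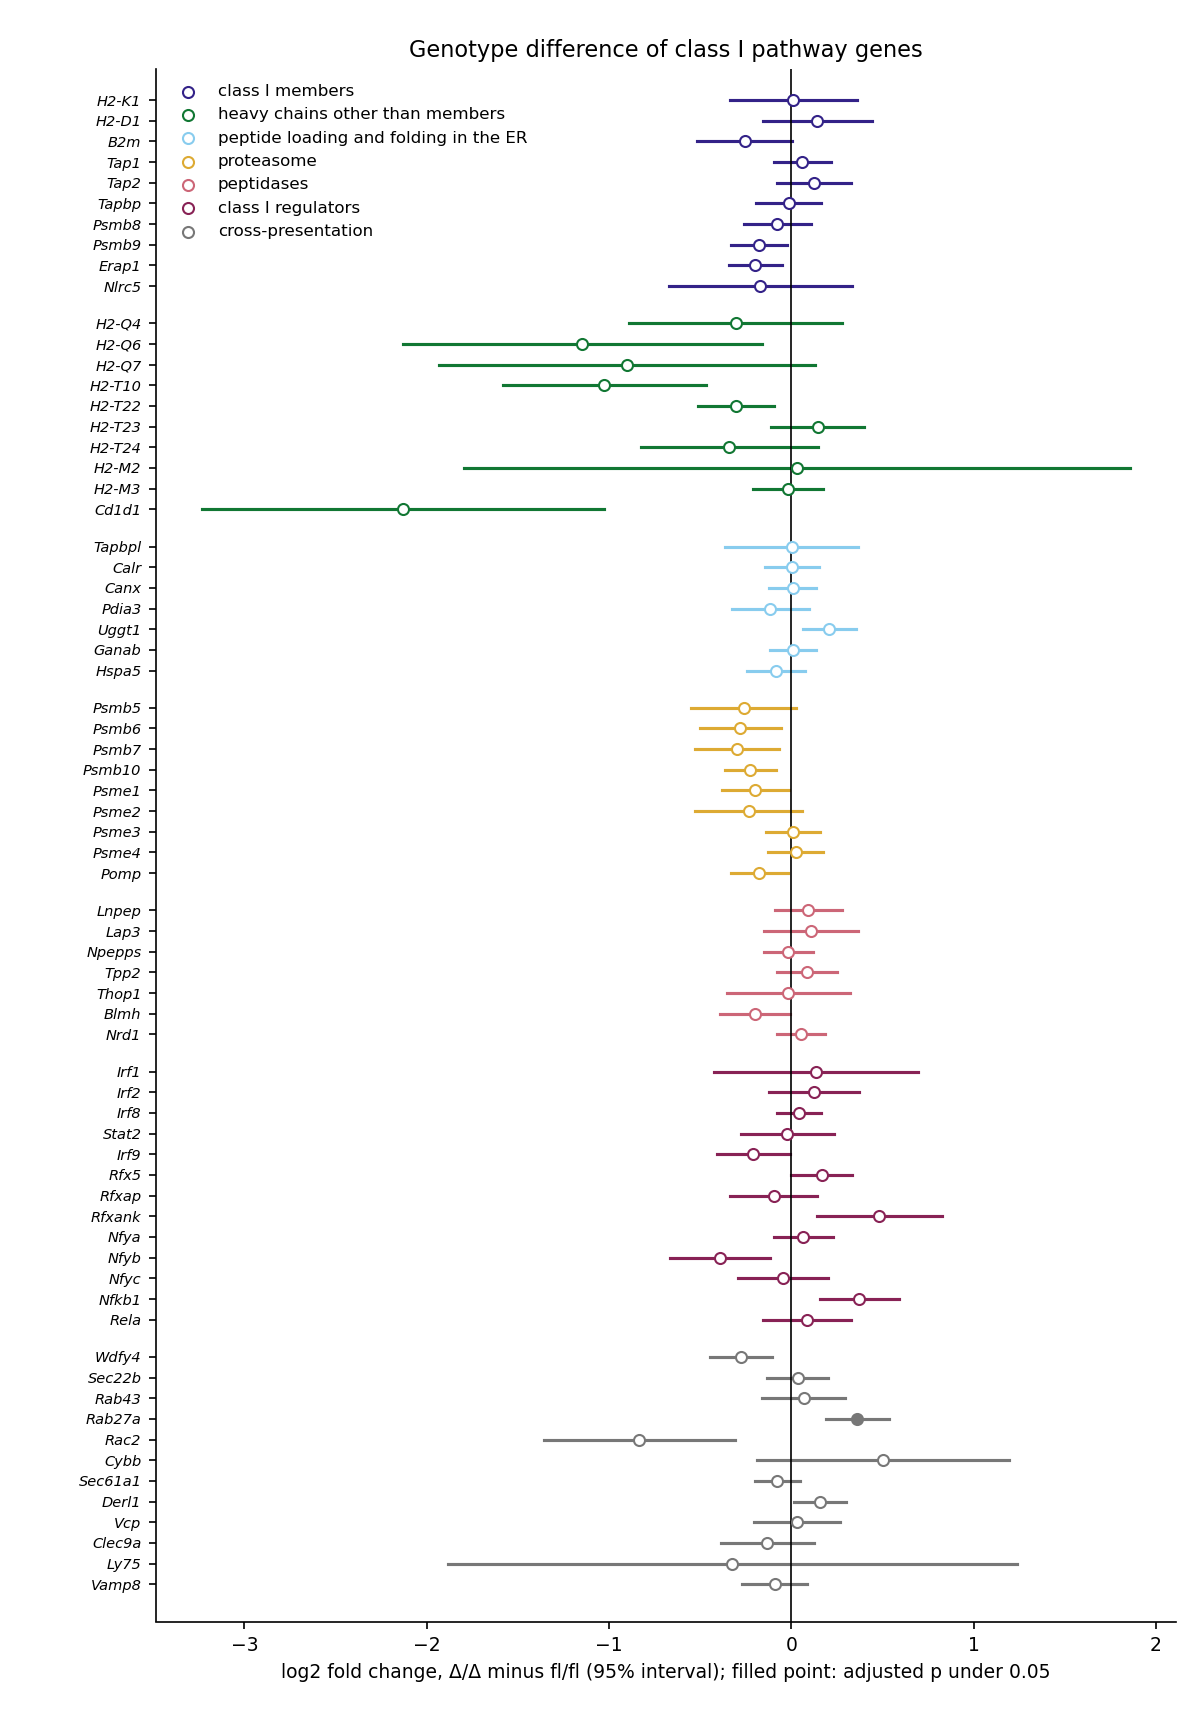
Log2 fold change of Δ/Δ over fl/fl libraries (horizontal axis) with its 95% interval (bar) for the 10 class I members and the 58 tested genes of 6 pathway lists, coloured by list, with filled points for adjusted p under 0.05 by edgeR. The members sit between −0.26 and 0.14, and the only filled point is *Rab27a* at 0.36.

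Ratios of read counts within a library do not depend on library scaling, and 6 of them were compared after values had been seen. The summed reads of *H2-K1* and *H2-D1* relative to *B2m* were 1.95, 1.84 and 2.03 in fl/fl and 2.30, 2.51 and 2.56 in Δ/Δ libraries. All 3 Δ/Δ libraries lay above all fl/fl libraries, at 2.46 ± 0.136 against 1.94 ± 0.0955 (SD, n = 3). That was the lowest p that 3 against 3 libraries allow (two-sided exact permutation test, p = 0.1, Benjamini-Hochberg adjusted over 6 ratios 0.6), so the design could not reach 0.05. The ratio of *H2-K1* to *H2-D1* was 0.712 ± 0.0585 in fl/fl and 0.649 ± 0.0225 in Δ/Δ libraries (SD, n = 3, exact permutation p = 0.2), and that of *Tap1* to *Tap2* was 1.37 ± 0.0670 and 1.31 ± 0.0742 (exact permutation p = 0.4). Immunoproteasome subunits relative to the subunits they replace overlapped between genotypes, at 16.4 and 18.6 for *Psmb8* to *Psmb5* (exact permutation p = 0.3), 3.84 and 4.16 for *Psmb9* to *Psmb6* (p = 0.5, exact) and 0.920 and 0.971 for *Psmb10* to *Psmb7* (p = 0.8, exact).

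**Figure D5:**
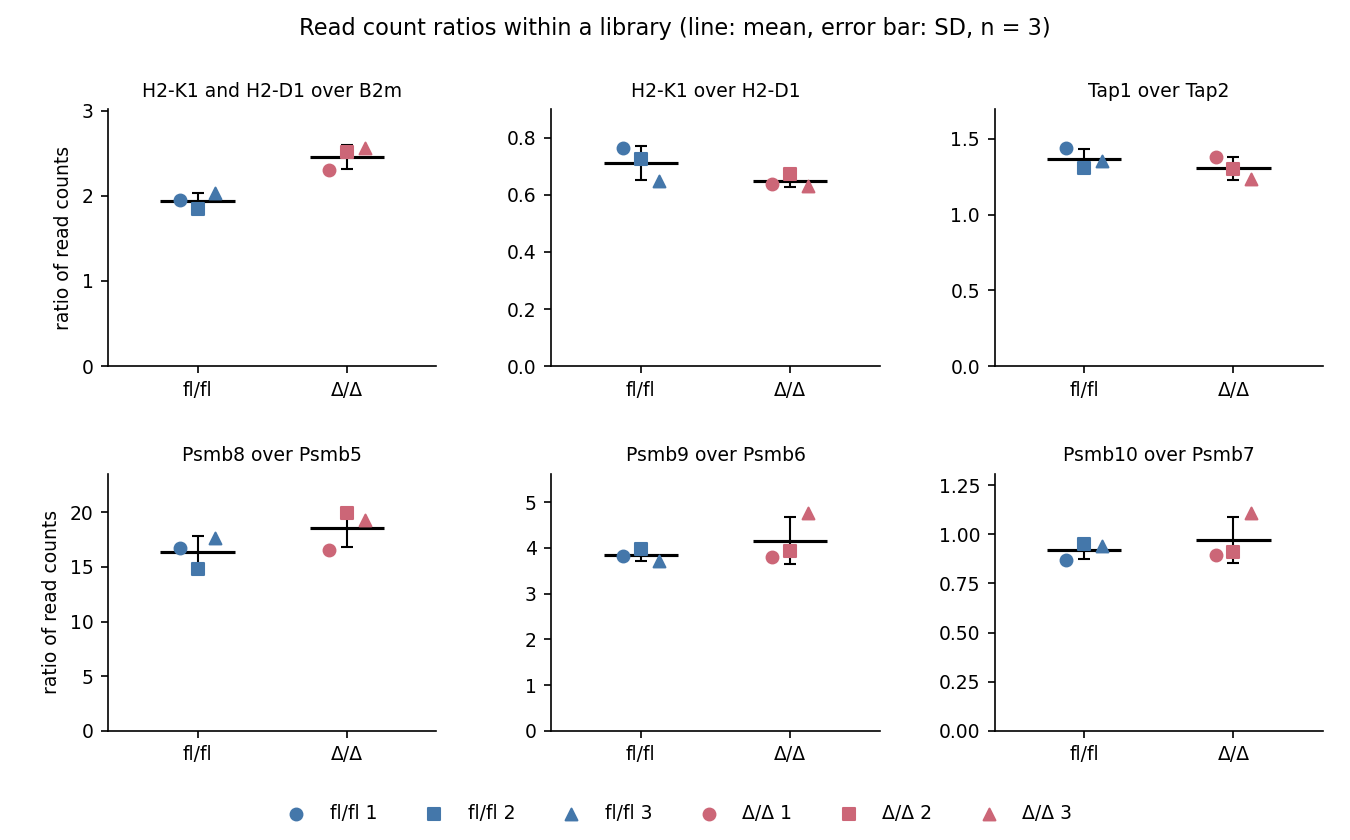
Ratios of read counts within each library (vertical axes, each from 0) for 6 pairs of class I genes, with 1 symbol per replicate number, a line at the mean and a bar for the SD of 3 libraries. The genotypes are apart for the heavy chains over *B2m*, with 1.84 to 2.03 in fl/fl and 2.30 to 2.56 in Δ/Δ libraries, and overlap in the other panels.

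On build GRCm38, 7 of the 10 members lie in the MHC on chromosome 17, from *Tapbp* (chr17:33915899-33929292) and *H2-K1* (chr17:33996017-34000347) past *Psmb9* (chr17:34181987-34187764), *Tap1* (chr17:34187553-34197225), *Psmb8* (chr17:34197721-34201454) and *Tap2* (chr17:34203527-34216321) to *H2-D1* (chr17:35262730-35267499). *B2m* (chr2:122147686-122153083), *Erap1* (chr13:74639568-74693201) and *Nlrc5* (chr8:94434356-94527272) lie elsewhere. Of 67 other tested genes between the first and the last of these 7 members, 29 had lower and 38 higher means in Δ/Δ libraries. Those that passed were all higher, namely the receptor gene *Notch4* (log2 fold change 1.64, adjusted p = 0.0239), the sialidase gene *Neu1* (0.47, adjusted p = 0.0256) and *Agpat1* (0.30, adjusted p = 0.0412), an enzyme of phospholipid synthesis, by edgeR, where 2.03% of all tested genes passed as higher. *Tap1* and *Psmb9* share 212 exon bases on opposite strands and *Erap1* shares 834 with *Cast*, and since the sources used here do not give the strand setting of the counting, reads in these stretches cannot be assigned with certainty.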

How the data were processed

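RNA of sorted FLT3L-derived cDC1s was sequenced in 6 poly(A) libraries, 3 per genotype. The labels do not say whether the libraries of a genotype came from separate mice, while the study's supplement describes the points of these RNA-Seq samples as individual mice. The authors deposited raw read counts per gene from STAR 2.6.1a (GRCm38, Gencode annotation), without normalization or pooling. Only uniquely mapped reads are counted, so genes that share sequence lose reads. The tallies of reads not assigned to a gene (20.3 to 20.9% of all) were left out. They include reads that map to several places (5.33 to 5.76%) and reads that are ambiguous between genes (1.81 to 1.98%). RSEM, bcl2fastq 2.19.1.403 and DESeq2 1.20.0 are also named in the submitters' processing notes.

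GENCODE M21 (GRCm38) named 54409 of 54532 gene identifiers. Testing used edgeR (version 4.0.16, under R 4.3.3; TMM factors of 0.989 to 1.01, filterByExpr with minimum count 10 and minimum total 15, glmQLFit and glmQLFTest on genotype), with Benjamini-Hochberg adjustment over 12894 genes and a threshold of 0.05. A chi-square of the counts of 2 libraries of a genotype gave 6.77 to 11.3 per degree of freedom for fl/fl pairs and 30.5 to 42.3 for Δ/Δ pairs, all above sampling noise. Shared sequence was counted in 75-base stretches of transcripts. The members and gene lists (6 pathway lists and the cell type markers) were chosen with earlier results of these data known. Named were all members, called genes of each list, the lowest and highest log2 fold change of each pathway list, the 3 genes most like the members and the deleted genes. *Ccr7*, *Irf8*, *Clec9a*, *Bst2*, *Lyz2*, *Ly6c2*, *Fcgr1*, *Elane* and *Ly6g* were named after their values were seen, as were others where the text says so. The listed gene *H2-T9* was not matched, and 1 gene of the regulator list is not reported here. Alternatives were DESeq2 1.42.0 (size factors, Wald test), limma-voom (limma 3.58.1), other filters, each library left out and a replicate term. Steps were tested on simulated counts with changes larger than those of the members. That test does not show whether differences of the members' size would be found.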

Additional observations from a re-analysis of the deposited data

How the results depend on the processing

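Across all tested genes, 500 passed by edgeR, 1104 by DESeq2's Wald test, 762 without a filter on low counts and 95 to 1320 when 1 library was left out. Of the 10 class I members, 0 passed, and 0 to 1 when 1 library was left out, the 1 being *B2m* without Δ/Δ 2. Of the other pathway genes, 1 passed, against 6 by DESeq2's Wald test, 2 by limma-voom, 5 without the filter and 0 to 4 when 1 library was left out. *H2-K1* (0.01) turned direction with limma-voom (−0.0042) and with a term for the replicate number (−0.0033), and ranged from −0.16 to 0.14 when 1 library was left out. *Tapbp* (−0.02) ranged from −0.081 to 0.057 when 1 library was left out, turning higher without Δ/Δ 1. *Nlrc5* (−0.17) ranged from −0.44 to 0.030, also turning higher without Δ/Δ 1. Without 1 library, *H2-D1* ranged from 0.0071 to 0.26, *Tap1* from 0.0031 to 0.11, *Tap2* from 0.071 to 0.21, *B2m* from −0.39 to −0.17, *Psmb8* from −0.13 to −0.024, *Psmb9* from −0.23 to −0.12 and *Erap1* from −0.23 to −0.15, with no change of direction. The cause was not tested. Replicate numbers recur in both genotypes, but same-numbered libraries deviated from their genotype means with correlations of 0.091, −0.148 and 0.200, so the numbers were not taken as pairs. With a replicate block, 417 genes passed in all, 0 members and 2 other pathway genes, and *Junb* (adjusted p = 0.0370) and *Rac2* (0.0352) passed, which they had missed by edgeR without it. With 3 libraries a genotype, differences of the members within their 95% intervals remain possible.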
